A study of Sus scrofa domesticus with 34 samples.

Results

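CALB1, S100G and TRPV6 encode calcium-carrying proteins whose transcription vitamin D raises in intestine or kidney, and the 3 genes were followed by their Ensembl identifiers (ENSSSCG00000006125, ENSSSCG00000012147 and ENSSSCG00000016469) in 34 pig libraries. They are 3 of 31907 genes counted in each library. CALB1 and S100G were among the 13974 genes that passed edgeR's filter on low counts, and TRPV6 was not. The 3 genes were chosen by name with their counts in these same libraries in view, and so was the regional score of each library that they are set against. Which of those values decided the choice is not recorded. The levels, changes and slopes below therefore describe a chosen set, and their p-values are no independent support for any pattern.

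The libraries were made from pigs fed 1 of 4 diets with different doses and forms of vitamin D, 1 library per animal, and all are labelled as muscle. Cholecalciferol is vitamin D3, and 25(OH)D is its 25-hydroxylated form, which the liver makes from it. With 25(OH)D as the vitamin D source (8 animals, of which 4 were female and 4 castrated male), feed held 2000 IU of 25(OH)D per kg for growers and 1500 IU for finishers, and 0 IU of cholecalciferol. Feed of the combination group (8 animals, 4 of each sex) held 2000 and 1500 IU of cholecalciferol and, in both phases, 1000 IU of 25(OH)D. Increased cholecalciferol (10 animals, 6 of them female and 4 castrated male) meant 3000 and 2500 IU. Standard cholecalciferol (8 animals, 4 of each sex), the control, meant 2000 and 1500 IU. All animals thus received some form of vitamin D, and no diet lacked it.

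In the cells that line the intestine, calcium enters through the channel TRPV6, is carried across the cell by calbindins and leaves through pumps and exchangers in the opposite membrane, and cells of the kidney tubule use a similar route with TRPV5 as the main entry channel. The hormone form of vitamin D, bound to its receptor VDR, raises transcription of these genes in intestine or kidney. S100G encodes the small calbindin of the mammalian intestine and CALB1 the larger one, which in mammals is found in kidney and, at high levels, in Purkinje cells, the output neurons of the cerebellar cortex.

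The tissue label was at odds with the counts. MBP, a protein of myelin, ranged from 1216 to 7606 CPM (counts scaled to a common library size) over the 34 libraries. SNAP25, a protein of nerve terminals, ranged from 464 to 2636 CPM and GFAP, a protein of astrocytes, from 790 to 3835 CPM. Muscle transcripts were present as well, with ACTA1, the actin of skeletal muscle, at 443 to 3831 CPM and CKM, muscle creatine kinase, at 51.7 to 795 CPM. Of 25 genes listed for skeletal muscle, 17 could be matched by symbol to a counted gene. The others had no match, and their levels are unknown. Gene counts totalled 1.34 to 30.4 M (mega, or M, counts) per library. By the numbers that the files carry, depth was 4.08 to 13.2 M for 1 to 24, 16.8 to 30.4 M for 25 to 29 and only 1.34 to 2.69 M for 30 to 34. The shallow run of 30 to 34 consists of 4 combination libraries and 1 25(OH)D library, and ACTA1 was at 2642 to 3831 CPM in it. KDM5D, a Y-linked gene, had 0 to 2.06 CPM in females (median 0.741) and 1.42 to 6.03 CPM in castrated males (median 2.85). EIF1AY, another, had 0.545 to 6.38 CPM in females (median 3.05) and 0.794 to 16.1 CPM in castrated males (median 9.76), so that both differed in level and overlapped in range. In bulk tissue, fewer cells of a type and less RNA per cell cannot be told apart.

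The libraries also differed along a regional score, the mean log2 CPM of CBLN1 and CBLN3 minus that of TBR1 and FEZF2. CBLN1 and CBLN3 encode cerebellins, which cerebellar granule cells make. TBR1 and FEZF2 encode transcription factors of projection neurons of the cerebral cortex. The score ran from 2.39 to 9.60 over the 34 libraries. It averaged 4.57 ± 1.79 on 25(OH)D (SD, n = 8), 5.36 ± 1.77 on the combination (SD, n = 8), 4.38 ± 2.35 on increased cholecalciferol (SD, n = 10) and 5.00 ± 2.86 on standard cholecalciferol (SD, n = 8). The diets overlapped widely, and the run of 30 to 34 lay at 5.23 to 6.54.

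CALB1 was by far the most abundant of the 3 genes, with 27455 counts in all and 94 to 5934 per library. On 25(OH)D its lowest, median and highest levels were 26.9, 45.5 and 221 CPM. On the combination they were 28.1, 105 and 342 CPM. On increased cholecalciferol they were 21.9, 47.4 and 189 CPM, and on standard cholecalciferol 27.5, 46.6 and 273 CPM. Every diet held libraries at the low and at the high end, and all 4 overlapped over most of their range. The median of the combination was set by its 4 libraries of file numbers 30 to 34. These had 104, 106, 109 and 126 CPM, and without them the median of the other 4 was 59.1 CPM. The span over all 34 libraries was 15.6-fold, with the highest level in combination replicate 1 and the lowest in increased cholecalciferol replicate 6.

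**Figure D1:**
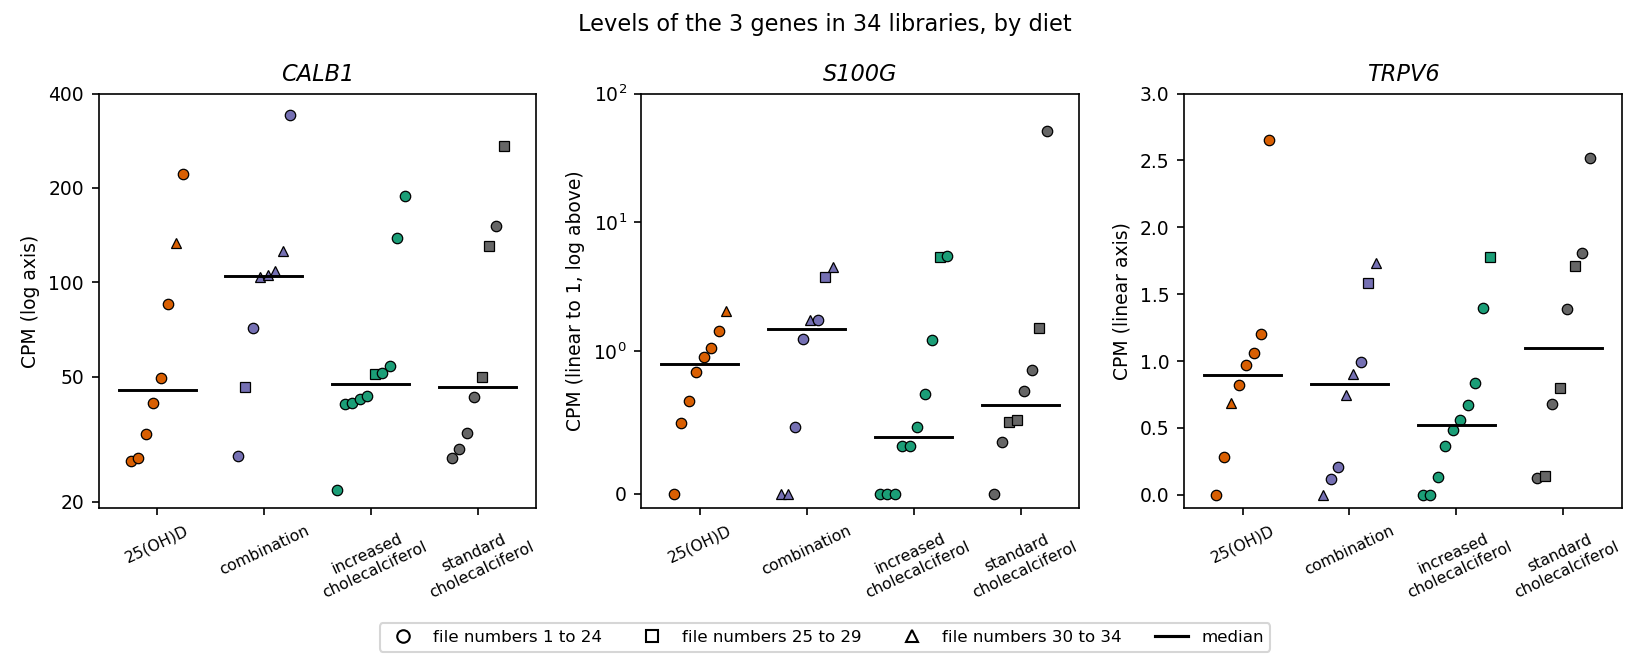
CPM of CALB1 (log axis), S100G (linear to 1 CPM, log above) and TRPV6 (linear axis) in each of 34 libraries by diet; points are libraries, their shape gives the run of file numbers, and bars are medians. The diets overlap for all 3 genes, and 1 standard cholecalciferol library stands at 51.5 CPM of S100G.

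By mean, CALB1 stood in the order combination (117 ± 97.0 CPM, SD, n = 8), standard cholecalciferol (92.3 ± 87.4, n = 8), 25(OH)D (77.3 ± 68.5, n = 8) and increased cholecalciferol (67.5 ± 52.9, n = 10), and each neighbouring pair differed by less than its SDs. In edgeR's quasi-likelihood test with diet and sex in the model, none of the 13974 genes (0%) passed an adjusted p of 0.05 in any of the 4 diet comparisons or in the test of any diet, nor with DESeq2 or limma-voom. At an unadjusted p under 0.05 there were 452 genes (3.23%) for 25(OH)D against standard cholecalciferol, 578 (4.14%) for the combination against increased cholecalciferol, 607 (4.34%) for the combination against standard cholecalciferol, 1086 (7.77%) for increased against standard cholecalciferol and 937 (6.71%) for any diet. CALB1 was in none of these sets, and S100G was in those for 25(OH)D against standard cholecalciferol, increased against standard cholecalciferol and any diet.

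The log2 change of CALB1 for 25(OH)D against standard cholecalciferol was -0.28 (SE 0.51, 95% interval -1.31 to 0.76, edgeR adjusted p = 1). For the combination against increased cholecalciferol it was 0.86 (SE 0.49, interval -0.13 to 1.84, edgeR adjusted p = 0.931), and without combination replicate 1 it was 0.28. For the combination against standard cholecalciferol it was 0.44 (SE 0.52, interval -0.61 to 1.49, edgeR adjusted p = 0.999). For increased against standard cholecalciferol it was -0.42 (SE 0.48, interval -1.39 to 0.56, edgeR adjusted p = 0.821). Each interval included 0, and a change within its bounds could not be told from 0 with these libraries. Without file numbers 30 to 34 the 4 changes were -0.39, 1.06, 0.65 and -0.41.

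Among file numbers 1 to 24 alone, the change for 25(OH)D against standard cholecalciferol was 0.35 and that for increased against standard cholecalciferol was also 0.35, both of opposite sign to the values over all libraries. CALB1 averaged 94.1 ± 74.5 CPM in 18 females and 79.4 ± 78.8 CPM in 16 castrated males (SD). Its log2 change between the sexes, here and below female minus castrated male, was 0.37 (SE 0.36, edgeR adjusted p = 0.863), while 11 genes (0.0787%) passed in that comparison. The interaction of diet and sex gave CALB1 an edgeR adjusted p of 1, and 0 genes (0%) passed, with 384 at an unadjusted p under 0.05 (2.75%).

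CALB1 was higher in each of the 14 libraries with a regional score above 5 than in any of the 20 under 5. How many other genes separate in this way was not counted. By the test of the slope, a different measure, 5262 of 13970 genes tested against the score passed (37.7%). With a rising score 2700 genes were higher (19.3% of those tested) and 2562 lower (18.3%). Scores of 5 and 7 were picked as dividing points after the data were seen. The 20 libraries with a score under 5 had 21.9 to 54.1 CPM, with a median of 41.3 CPM. The 7 libraries between 5 and 7 had 71.7 to 134 CPM and the 7 above 7 had 131 to 342 CPM, which overlap by a narrow margin. Libraries of all 4 diets were under 5, in numbers of 5 for 25(OH)D, 2 for the combination, 8 for increased cholecalciferol and 5 for standard cholecalciferol. All 4 diets were also above 7, with 1, 1, 2 and 3 libraries in the same order. The combination had 5 libraries between 5 and 7, and 4 of these were from file numbers 30 to 34.

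In the edgeR test of the score, with diet and sex in the model, CALB1 rose by 0.44 on the log2 scale per unit of score (SE 0.03, interval 0.37 to 0.50, edgeR adjusted p = 2.6e-14), a factor of 1.36. Only 26 genes (0.186%) had a higher slope and 89 (0.637%) a smaller p. The slope lay between 0.41 and 0.47 when each library was left out in turn, and it was 0.44 without file numbers 30 to 34.

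Over the 34 libraries, log2 CPM of CALB1 and the score gave a Pearson r of 0.908 (permutation p = 1e-05, the smallest that the permutations can give) and a Spearman rho of 0.806 (permutation p = 1e-05). It was 1 of 3 such correlations computed, 1 per gene. Without the 2 libraries farthest from the median score r was 0.924, and within file numbers 1 to 24 it was 0.915, while the other runs held 5 libraries each, too few for a value. The relation was uneven along the score. Among the 20 libraries with a score under 5, r was 0.213 (permutation p = 0.369, n = 20), and among the 14 of 5 or over it was 0.738 (permutation p = 0.00225, n = 14). The correlation over all libraries thus rests on the contrast between low and high scores and on the order within the high ones. Diet alone accounted for 7.17% of the variance of log2 CPM of CALB1, the score alone for 82.5%, the run of file numbers for 14.5% and sex for 1.31%.

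**Figure D2:**
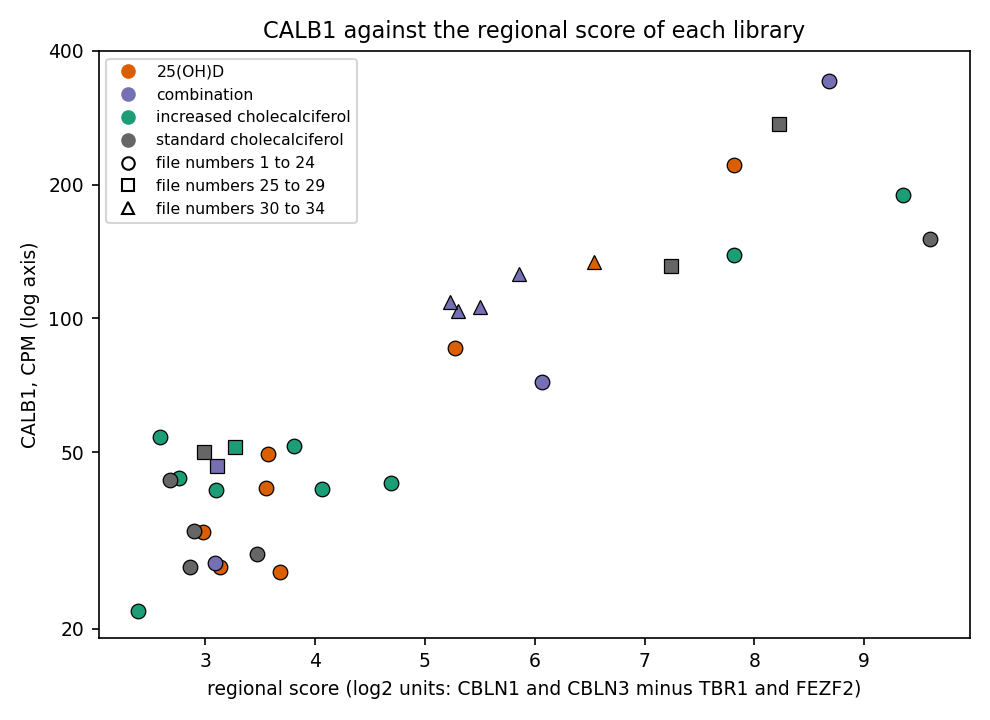
CALB1 in CPM (log axis) against the regional score (log2 units) in 34 libraries, coloured by diet and shaped by run of file numbers. Libraries under a score of 5 lie at 21.9 to 54.1 CPM and the others at 71.7 to 342 CPM, with the 4 diets spread along the same band.

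With the score added to the model, the diet differences of CALB1 became 0.00 (SE 0.21, interval -0.42 to 0.41) for 25(OH)D against standard cholecalciferol and 0.30 (SE 0.20, interval -0.10 to 0.71) for the combination against increased cholecalciferol. They were 0.31 (SE 0.21, interval -0.10 to 0.73) for the combination against standard cholecalciferol and 0.01 (SE 0.19, interval -0.39 to 0.40) for increased against standard cholecalciferol. The standard errors were under those without the score in every comparison, and none of the intervals excluded 0. The libraries farthest from the line of log2 CPM on the score were standard cholecalciferol replicate 1, with 151 CPM at a score of 9.60 and a residual of -0.93, and 25(OH)D replicate 4, with a residual of -0.77, against a residual SD of 0.45.

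**Figure D3:**
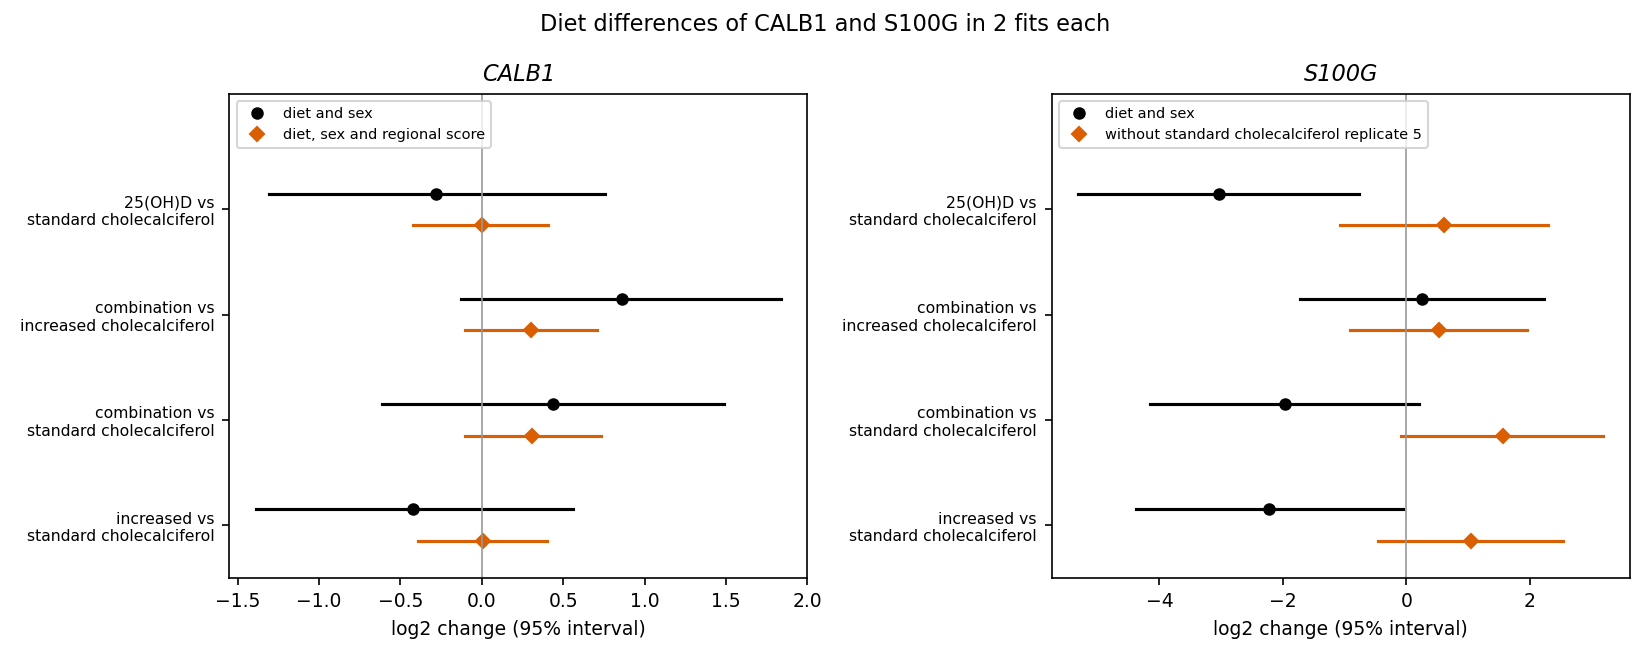
Log2 changes with 95% intervals for the 4 diet comparisons, CALB1 on the left without and with the regional score in the model, S100G on the right with all libraries and without standard cholecalciferol replicate 5. For CALB1 the intervals narrow and include 0, and for S100G the 3 changes against standard cholecalciferol turn positive without that library.

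The genes whose levels followed CALB1 most closely over the 34 libraries, among 11132 genes with a symbol that passed the filter, were ETV1 (Spearman rho 0.947), CA8 (0.941), CEP76 (0.931), ITPRID1 (0.923) and ZIC4 (0.919). The median rho over all candidates was 0.029. CA8, a carbonic anhydrase-related protein, is abundant in Purkinje cells, ETV1 is a transcription factor of the ETS family made in cerebellar granule cells, and ZIC4 is a zinc finger factor of the developing cerebellum. Of 17 other genes listed for Purkinje cells, 16 were measured and 13 tested, and 11 rose and 0 fell with the score, where 19.3% of all genes tested rose and 18.3% fell. Their median slope was 0.28 against 0 over all genes tested. Of 20 genes listed for cerebellar granule cells, 17 were tested, and 16 rose and 0 fell, with a median slope of 0.40, so that the rise was not particular to the Purkinje cell list. CBLN1 and CBLN3, which make the high side of the score, are on the granule cell list and were left out of the 17. CA8 had a slope of 0.44 and PCP4, a regulator of calmodulin, of 0.23. PVALB, the calcium buffer parvalbumin, had a slope of 0.03 and did not pass the threshold. Genes listed for the cerebral cortex had a median slope of -0.41, with 1 higher and 8 lower among 11 tested, TBR1 and FEZF2 left out. The score was built from genes of the granule cell and cortex lists, so the directions of these lists are no independent result.

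S100G was low or not detected in most libraries, and 1 library stood far above the rest. It had 781 counts in all, of which 378 (48.4%) came from standard cholecalciferol replicate 5, and 7 libraries had 0 counts and 26 had under 10. Apart from that library, the largest counts were 106 in increased cholecalciferol replicate 10, 104 in combination replicate 4 and 45 in increased cholecalciferol replicate 8. On 25(OH)D the lowest, median and highest levels were 0, 0.906 and 2.06 CPM. On the combination they were 0, 1.48 and 4.50 CPM, on increased cholecalciferol 0, 0.40 and 5.48 CPM, and on standard cholecalciferol 0, 0.620 and 51.5 CPM. Without replicate 5, the highest standard cholecalciferol library had 1.52 CPM, inside the range of each of the other diets. The library at 51.5 CPM stood 9.40 times above the next one, increased cholecalciferol replicate 8 at 5.48 CPM. A library at 0 allows a level of up to 3 counts, counting error only. Among the libraries at 0 for S100G this ran from 0.338 CPM (increased cholecalciferol replicate 7) to 1.42 CPM (combination replicate 6). Over all 34 libraries 3 counts were 0.108 CPM in the deepest and 2.06 CPM in the shallowest, and neither of these was at 0.

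No diet difference of S100G passed the adjusted threshold, and the direction of 3 of them was decided by that 1 library. For 25(OH)D against standard cholecalciferol the log2 change was -3.04 (SE 1.12, interval -5.32 to -0.76, unadjusted p = 0.0103, edgeR adjusted p = 1), and without standard cholecalciferol replicate 5 it was 0.61 (interval -1.07 to 2.30). For the combination against standard cholecalciferol it was -1.97, and without that library 1.56 (interval -0.08 to 3.19). For increased against standard cholecalciferol it was -2.22, and without that library 1.04 (interval -0.46 to 2.54). By limma-voom on all libraries these 3 changes were -0.20, 0.87 and 0.08, so that the first was far smaller and the other two were of opposite sign to edgeR's. The combination against increased cholecalciferol gave 0.25, and 0.52 without it. The test of any diet gave an edgeR adjusted p of 0.731, and 0.760 without it. The interaction of diet and sex gave an unadjusted p of 0.00156, and 0.0336 without that library, with an edgeR adjusted p of 1 in both.

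S100G averaged 3.61 ± 12 CPM in 18 females and 1.62 ± 1.72 CPM in 16 castrated males (SD). Its log2 change, female minus castrated male, was -0.04. Without standard cholecalciferol replicate 5, a female library, that change was -1.24 (interval -2.36 to -0.12, edgeR adjusted p = 0.778). Its slope on the regional score was -0.30 (SE 0.17, edgeR adjusted p = 0.181). Without standard cholecalciferol replicate 5 the slope was -0.03 (edgeR adjusted p = 0.854), and without increased cholecalciferol replicate 8 it was -0.59 (edgeR adjusted p = 0.00659), so that single libraries decided that call as well. The correlation of log2 CPM with the score was -0.197 (permutation p = 0.265), and the closest genes by Spearman rho, led by PLSCR4 at 0.658 and RASD1 at 0.562, rest on sparse counts.

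In the library with the high S100G level, some genes listed for intestinal epithelium were at their highest and others were not. Of 15 listed intestinal epithelium genes that were measured, 6 had their highest level of the 34 libraries there. The share of all genes with their highest level in this library is not given here, so the count of 6 has no background to be set against. FABP2, the fatty acid-binding protein of enterocytes, was at 4.77 CPM against 1.36 CPM in the next library, KRT20, an intestinal keratin, at 6.95 against 3.31 CPM, and LGALS4, a galectin of the gut, at 3.13 against 1.39 CPM. ANPEP, MUC2 and RBP2 were also highest there, by smaller margins. Other genes of the list were higher in another library. VIL1 was at 1.36 CPM there against up to 4.45 CPM elsewhere, EPCAM at 2.32 against 3.33 CPM and APOA4 at 0.953 against 5.16 CPM. The cadherin CDH17 had 0 counts there and the transcription factor CDX2 had 1 count, and each was at 0 in 32 of the 34 libraries. The summed level of the list was 279 CPM there and 123 to 289 CPM in the other libraries, and 248 CPM of it was APOA1, an apolipoprotein of liver and intestine. Chosen after their values were seen, the genes with at least 30 counts in that library that stood farthest above the next library were S100G itself, LYPD8 (5.97 times), PIGR (5.21 times), FABP2 (3.50 times) and TM4SF20 (2.83 times). PIGR carries immunoglobulins across epithelia. The part of these transcripts in the S100G level was not tested.

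TRPV6 had 253 counts in all, 0 to 44 per library, with 4 libraries at 0 and 26 under 10 counts. On 25(OH)D the lowest, median and highest levels were 0, 0.898 and 2.65 CPM. On the combination they were 0, 0.828 and 1.73 CPM, on increased cholecalciferol 0, 0.525 and 1.78 CPM, and on standard cholecalciferol 0.123, 1.1 and 2.52 CPM. The 4 diets overlapped over most of this range, and many of the libraries lie near the level that 3 counts would give. In exact permutation tests of mean CPM (two-sided, adjusted over the 4 comparisons), 25(OH)D differed from standard cholecalciferol by -0.187 CPM (p = 0.650, adjusted p = 0.650) and the combination from increased cholecalciferol by 0.161 CPM (p = 0.584, adjusted p = 0.650). The combination differed from standard cholecalciferol by -0.361 CPM (p = 0.364, adjusted p = 0.650) and increased from standard cholecalciferol by -0.522 CPM (p = 0.143, adjusted p = 0.570), all by exact permutation.

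TRPV6 ran opposite to CALB1 along the regional score. The 20 libraries with a score under 5 had 0 to 2.65 CPM, with a median of 1.03 CPM. The 7 between 5 and 7 had 0 to 1.73 CPM, with a median of 0.687 CPM, and the 7 above 7 had 0.118 to 0.801 CPM, with a median of 0.138 CPM. These groups overlapped. Pearson's r of log2 CPM with the score was -0.553 (permutation p = 0.00068) and Spearman's rho -0.482, with r at -0.489 without the 2 libraries farthest from the median score and -0.581 within file numbers 1 to 24. Within the 20 libraries under 5, r was -0.206 (permutation p = 0.381), and within the 14 of 5 or over it was -0.354 (permutation p = 0.211). In edgeR without the filter on low counts, where 5459 of 25691 genes passed (21.2%), the slope was -0.43 (SE 0.11, interval -0.64 to -0.21, adjusted p = 0.00174). TRPV6 averaged 0.597 ± 0.510 CPM in 18 females and 1.16 ± 0.806 CPM in 16 castrated males (SD), and the edgeR log2 change without the filter was -0.91 (SE 0.47, adjusted p = 0.599), in a comparison where 12 of 25695 genes passed (0.0467%).

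**Figure D4:**
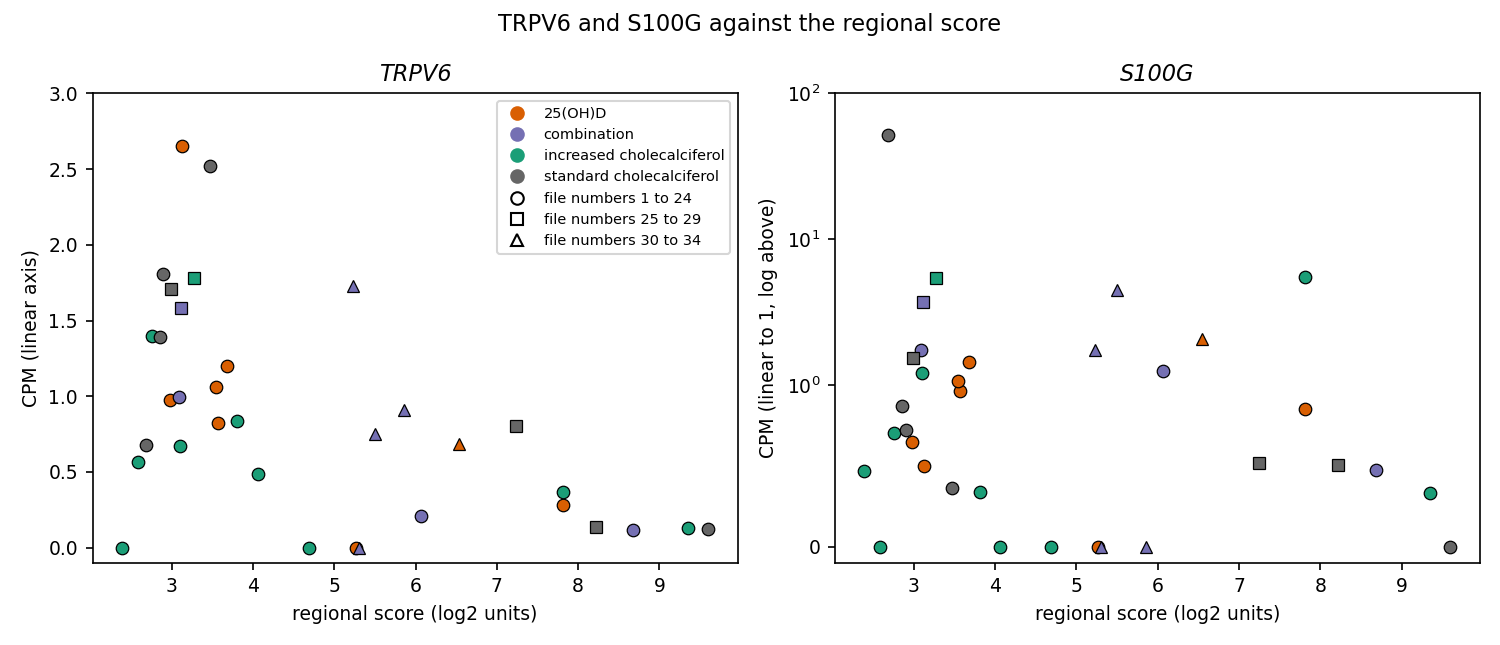
CPM of TRPV6 (linear axis) and S100G (linear to 1 CPM, log above) against the regional score (log2 units) in 34 libraries, coloured by diet and shaped by run of file numbers. TRPV6 reaches 2.65 CPM under a score of 5 and at most 0.801 CPM above 7, and S100G shows 1 library at 51.5 CPM.

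The spans of 2 of the 3 genes overlap those of neighbours. Reads classed as ambiguous were left out of the counts, and how many of them belonged to these genes is not known. In RefSeq's pig annotation, used here for neighbours and not for coordinates, the span of S100G overlaps CTPS2, that of TRPV6 overlaps TRPV5 and EPHB6, and that of CALB1 overlaps no other gene. TRPV5, the closest relative of TRPV6 and the calcium channel of the kidney tubule, was not analysed here.

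Of 20 other genes listed for vitamin D-controlled calcium transport, 17 were measured and 12 tested. No gene of this list passed in any of the 4 diet comparisons. Against the score, 2 rose and 4 fell, with a median slope of -0.04 against 0 over all genes tested, of which 37.7% passed. ATP2B3, a calcium pump of the plasma membrane, had a slope of 0.15, and the exchanger SLC8A2 of 0.06. The pump genes ATP2B4 (-0.28) and ATP2B1 (-0.07), the exchanger SLC8A1 (-0.08) and RXRA, the partner of VDR (-0.10), fell. VDR had a slope of 0.12 (edgeR adjusted p = 0.0736). CYP24A1, which degrades the hormone, and CYP27B1, which makes it, averaged 0.180 and 0.0564 CPM and were under the filter.

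**Figure D5:**
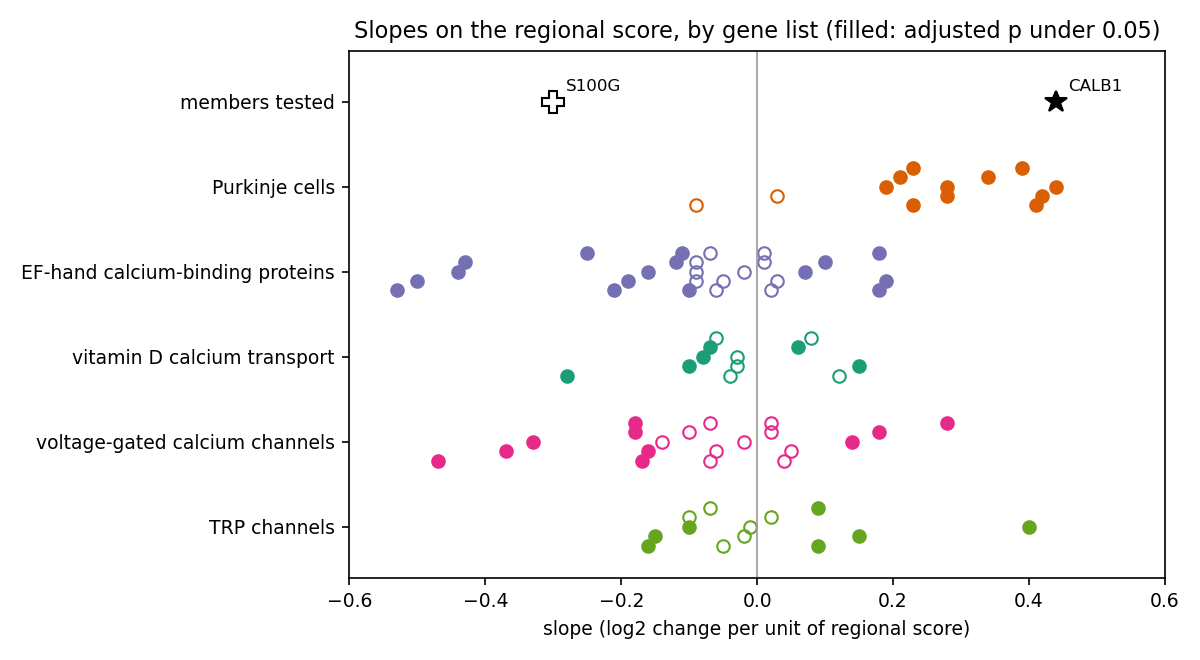
Slope on the regional score (log2 change per unit) of CALB1 and S100G and of the tested genes of 5 lists; each point is a gene and filled points have an edgeR adjusted p under 0.05. The Purkinje cell genes lie mostly right of 0, on the side of CALB1 at 0.44, and the other 4 lists drawn lie on both sides of 0.

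The wider families of these proteins held genes that rose and genes that fell with the score, as did all genes tested, of which 19.3% rose and 18.3% fell. Of 27 tested EF-hand calcium-binding genes, the class to which both calbindins belong, 5 rose and 11 fell with the score, with a median slope of -0.09. CALB2, which encodes calretinin, rose with a slope of 0.19 and KCNIP1, a potassium channel subunit, with 0.10, while the neuronal calcium sensors HPCAL4 (-0.50) and NCS1 (-0.21) and the potassium channel subunit KCNIP2 (-0.43) fell. Of 13 tested TRP channels, the class of TRPV6, 4 rose and 3 fell. Of 20 tested voltage-gated calcium channel genes, 3 rose and 7 fell (37.7% of all genes tested passed in either direction), with CACNA2D2 at 0.28 and CACNA1G at 0.18 among those that rose and CACNG3 at -0.47 and CACNA2D3 at -0.33 among those that fell. No gene of these 3 lists passed in a diet comparison.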

How the data were processed

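RNA of 34 libraries was measured with a QuantSeq 3′ kit, per the labels' protocols, with 1 fragment near the 3′ end per transcript and counts that are independent of its length. The authors deposited raw read counts per gene, 1 file per library, and FastQC, TopHat, HTSeq and DESeq2 are named in the submitters' processing notes. Versions, genome build and use of strand: not given in the sources used here. HTSeq's 5 category lines, with 16.4 to 29.9% of reads outside features, 3.63 to 4.68% ambiguous and 11.2 to 20.7% aligned to several places, were left out.

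Counts were tested with edgeR 4.0.16 under R 4.3.3 (F-test on quasi-likelihood fits, TMM scaling, filterByExpr with a minimum count of 10, a model of diet and sex, all 34 libraries), with Benjamini-Hochberg adjustment over all genes tested and a threshold of 0.05. DESeq2 1.42.0 and limma-voom (limma 3.58.1) were alternatives. The regional score used log2 CPM with a prior count of 3, and entered the model as a covariate in its own test. CPM used TMM-scaled library sizes. TRPV6, under the filter, was compared by exact permutation of CPM and by edgeR without the filter. Correlations used 100000 permutations. Intervals are 95%, and floors of 3 counts cover counting error only. Replicates are numbered by accession and are unpaired, and no files were identical. P-values set a difference, slope or correlation against the spread between these libraries.

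The members, the score and the gene lists were chosen with earlier results of these data known. Named genes are the 3 members, the genes of the score, the 5 most similar by Spearman rho to each tested member, of each calcium list the genes past a diet threshold or up to 5 per direction with the smallest p for the score, and the 2 most abundant of each marker list. The intestinal genes of 1 library were singled out after their values were seen. An item under these rules is not reported here. Scripts were tested on simulated data.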

Additional observations from a re-analysis of the deposited data

Results flagged for a closer look

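In each diet and for each of the 3 genes, the distance of the highest or lowest library to its nearest neighbour was compared with the range of the group (Dixon's criterion), in 12 groups in all. The criterion marks about 1 in 20 groups by chance if values are normally distributed. It was applied to CPM without a log scale, and in every group the larger gap was at the highest library. That rate therefore need not hold here, and the 3 of 12 groups that were marked cannot be read as an excess over it. CALB1 was at 342 CPM in combination replicate 1, above the other 7 combination libraries, and that library had the highest regional score of its diet, 8.68. S100G was at 51.5 CPM in standard cholecalciferol replicate 5, where the other 7 libraries of the diet had at most 1.52 CPM. TRPV6 was at 2.65 CPM in 25(OH)D replicate 3, which is 16 counts.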

How the results depend on the processing

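Beyond leaving out single libraries, 254 alternative values were computed, and 232 were classed as unchanged. For changes, slopes and correlations this means the same direction and the same side of the threshold. For tests without a direction it means the same side of the threshold, and for numbers of genes passed a number equal or within a set factor. With the run of file numbers as a term, CALB1 for 25(OH)D against standard cholecalciferol was 0.10 and the sex change of S100G was 0.05, of opposite sign, 1 gene passed for the combination against increased cholecalciferol and for any diet, and 18 passed for sex. In file numbers 1 to 24 alone, CALB1 was 0.35 for 25(OH)D and 0.35 for increased, both against standard cholecalciferol, TRPV6 for the combination against increased cholecalciferol was -0.056 CPM, 2 genes passed for that comparison and 1 for any diet. Without file numbers 30 to 34, 1 gene passed in each of those. With the regional score added, CALB1 for increased against standard cholecalciferol was 0.01 and 1 gene passed for any diet, as it did with no sex term, while 5 passed with no filter. By limma-voom, S100G was 0.87 for the combination and 0.08 for increased, both against standard cholecalciferol. With no diet and no sex term, the score slope of S100G was -0.45 (edgeR adjusted p = 0.0197). The causes were not tested. Chosen after seeing the data, the correlation with the score was also taken within scores under 5, at 0.213 for CALB1 and -0.206 for TRPV6, and within scores of 5 or over, at -0.354 for TRPV6, none past the threshold, and without file numbers 30 to 34 or standard cholecalciferol replicate 5, which changed no call.

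Leaving out each library in turn, CALB1 ranged from -0.70 to 0.17 for 25(OH)D against standard cholecalciferol, from -0.10 to 0.82 for the combination against standard cholecalciferol and from -0.72 to 0.01 for increased against standard cholecalciferol. The upper ends came without standard cholecalciferol replicate 6, and -0.10 without combination replicate 1. S100G ranged from -3.34 to 0.61, from -2.41 to 1.56 and from -2.66 to 1.04 in the same comparisons, with the upper ends without standard cholecalciferol replicate 5, and from -0.23 to 0.81 for the combination against increased cholecalciferol. Its sex change ranged from -1.24 to 0.21 and its score slope from -0.59 to -0.03. TRPV6 for 25(OH)D against standard cholecalciferol ranged from -0.428 to 0.00883 CPM, and 0 to 1 genes passed for any diet. No paired analysis was possible because the replicate numbers only follow accession order. Depth limits S100G and TRPV6, each with under 10 counts in 26 of 34 libraries.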
